A study of Mus musculus with 6 samples.

Results

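The genes described here mark endothelial identity: 36 genes for surface proteins, cell junctions, secreted and matrix proteins, transcription factors, receptors and signalling proteins of the cells that line blood and lymph vessels. They were taken by symbol, leaving out the Vegf and Tie receptors, and where a gene had several probe sets the one with the highest average of the 6 arrays stands for it. All 36 were measured, among 18193 genes tested. The samples were whole pancreata of mouse embryos at E12.5, 3 control samples (genotype wild type, strain Bl6) and 3 Hox6 null samples (strain Bl6), each on an Affymetrix array of its own. Hox6 stands for the paralogous genes Hoxa6, Hoxb6 and Hoxc6, which encode homeodomain transcription factors. The labels do not give the alleles, the number of embryos per sample, their sex or their litters, so that the p-values speak for the spread among these 6 samples only.

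Endothelial cells hold together through adherens and tight junctions, which control what leaves the vessel. Their identity is maintained by ETS factors such as Erg and Fli1 and by the SoxF factors Sox7, Sox17 and Sox18. In the embryonic pancreas vessels run through the mesenchyme around the branching epithelium, and vascular cells are a known source of signals for epithelial growth and differentiation.

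Values are deposited log2 levels after robust multi-array averaging (RMA), which scales the arrays to one distribution, so a level is relative to the other genes of the array and is not compared between probe sets. Array medians lay between 5.97 and 6.02. Array pairs correlated at 0.994 to 0.995 within the control group, at 0.980 to 0.987 within the null group and at 0.979 to 0.990 between the groups (Pearson, over probe sets). Null 3 correlated more closely with each control (0.989 to 0.990) than with null 1 (0.980) or null 2 (0.985). Of the targeted genes, Hoxb6 read 8.78, 8.97 and 9.36 in control arrays 1 to 3 and 8.25, 8.71 and 8.91 in null arrays 1 to 3. For Hoxc6 there were 3 probe sets, with differences (null minus control) of +0.13, +0.47 and +0.73. The adjusted p-values over all probe sets (limma) were 0.551, 0.380 and 0.253 for these and 0.393 for Hoxb6. Hoxa6 was not analysed here, and the disrupted parts are not stated, so that these probe sets may lie outside them and check nothing.

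All 36 endothelial genes had a lower mean level in Hox6 null than in control pancreas. The median difference was -0.56 on the log2 scale, against +0.03 over all genes, of which 44.0% were lower. Differences ranged from -1.09 (Sox17) to -0.07 (Apln), and 19 of the 36 were under -0.5, compared with 4.24% of all genes. The levels of the 3 null arrays lay below all 3 control arrays for 24 of 36 genes, against 11.7% of all genes, and above all controls for none. Fewer endothelial cells and less of these RNAs per endothelial cell cannot be told apart in whole tissue.

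Few of these genes passed singly. Only Clec14a, a C-type lectin of the endothelial surface, passed the test over all genes (limma with Benjamini-Hochberg adjustment, threshold 0.05), where 13 genes passed in all, 0.0715% of those tested, and 12 of them, 0.0660%, were lower in null arrays. The unadjusted p was under 0.05 for 25 of the 36 genes, all lower, against 8.24% of all genes. The adjusted p-values of the other 35 ran from 0.0711 to 0.735. The 95% intervals of 25 genes lay wholly below 0.

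**Figure D1:**
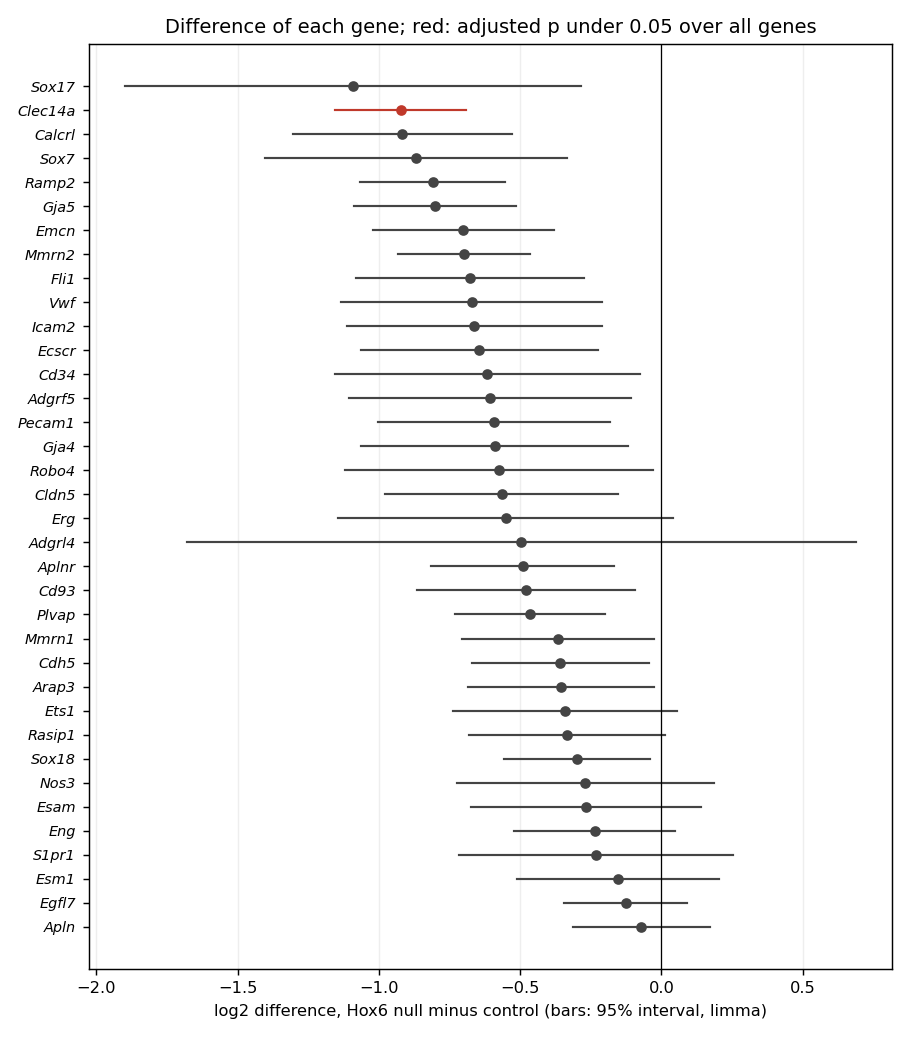
Log2 difference, Hox6 null minus control, of each of the 36 endothelial genes (points) with its 95% interval from limma (bars), ordered by size, with the gene past the threshold over all genes in red. All points lie below 0, from -0.07 for Apln to -1.09 for Sox17, and the intervals of 25 genes end below 0.

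Clec14a had log2 levels of 7.18, 7.03 and 7.18 in control arrays 1 to 3 and of 6.13, 6.22 and 6.26 in null arrays 1 to 3. All null arrays lay close together and well below the controls. Clec14a fell by 0.92 ± 0.10 (SE, n = 3 per group), which is 1.90-fold, with an adjusted p of 0.0417 (limma). A dimmer probe set of the gene differed by -0.82 and also had no overlap. The call was lost when single arrays were left out, with adjusted p-values (limma) of 0.248, 0.252 and 0.239 without control 1, 2 or 3, of 0.0882 without null 1 and of 0.185 without null 2. Without null 3 it was 0.00994. It was also lost with repeated quantile normalization (0.0557), with arrays centred on their median (0.0519), in the fit over all probe sets (0.0779), with the replicate number as a block (0.123) and with the level of epithelial markers as covariate (0.101).

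Promoter sequences are shown for the 3 genes with the smallest p-values among the 17 members that the reference table of RefSeq promoters (GRCm38.p6) holds. Each run gives the 250 bases before the start site, 5′ to 3′ on the gene's strand, with GGAAG, the core letters of ETS factor motifs, in capitals on either strand. The windows lie at chr12:58269259-58269508 (minus strand) for Clec14a, chr3:97032152-97032401 (plus strand) for Gja5 and chr2:84425267-84425516 (minus strand) for Calcrl.
Clec14a: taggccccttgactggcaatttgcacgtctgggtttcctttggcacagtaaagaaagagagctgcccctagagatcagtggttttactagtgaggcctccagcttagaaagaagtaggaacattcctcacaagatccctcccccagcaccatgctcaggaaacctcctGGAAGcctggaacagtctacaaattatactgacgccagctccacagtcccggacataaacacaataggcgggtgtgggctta
Gja5: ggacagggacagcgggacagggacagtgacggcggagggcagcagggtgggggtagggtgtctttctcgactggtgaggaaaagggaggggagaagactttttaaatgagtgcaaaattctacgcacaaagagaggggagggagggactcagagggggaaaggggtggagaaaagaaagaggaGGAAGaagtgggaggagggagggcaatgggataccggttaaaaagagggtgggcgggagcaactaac
Calcrl: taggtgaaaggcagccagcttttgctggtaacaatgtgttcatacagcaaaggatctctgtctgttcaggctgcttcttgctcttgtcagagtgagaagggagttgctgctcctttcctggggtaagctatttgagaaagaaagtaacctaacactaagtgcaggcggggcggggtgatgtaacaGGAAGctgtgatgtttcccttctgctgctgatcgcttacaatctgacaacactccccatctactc
Each of these windows holds GGAAG once, ending 77, 62 and 60 bases before the start site of Clec14a, Gja5 and Calcrl. Among the 22 windows of the 17 members, GGAAG occurred in 18 (81.8%), against 64.1% of 32851 windows of all genes. The longer ETS sequence CCGGAAG was in 0 of the 22, against 6.91% of all windows. ACAAT, the core letters of SOX motifs, occurred in 8 member windows (36.4%, against 27.7% of all), the GATA motif AGATAA in 1 (4.55%, against 9.99%) and the TATA box letters TATAAA in 1 (4.55%, against 12.4%). All motifs were searched on both strands, GGAAG lies within CCGGAAG, and letters in a window are a description and not a binding site. The median GC content was 52.6% in member windows and 52.4% in all windows.

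Each of the 7 junction and adhesion genes had a lower mean level in null arrays, with a median difference of -0.59, and 6 had no overlap between the groups, against 11.7% of all genes. None passed over all genes (limma), and 6 had an unadjusted p under 0.05, against 8.24% of all genes. Gja5 encodes connexin 40, a gap junction protein of arterial endothelium. It read 7.33, 7.34 and 7.31 in control and 6.39, 6.42 and 6.76 in null arrays, a difference of -0.80 ± 0.12 (SE). Its 3 controls were nearly equal, and null 3 was the closest to them (adjusted p = 0.0819, limma). Gja4, which encodes connexin 37, read 7.35, 7.46 and 7.36 in control and 7.03, 6.32 and 7.05 in null arrays, and null 2 was the lowest. Pecam1, the platelet endothelial adhesion molecule, read 8.31, 8.32 and 8.68 against 7.64, 7.73 and 8.17, a difference of -0.59 ± 0.17 (SE). Icam2, an adhesion molecule for leukocytes, read 7.86, 7.87 and 7.94 against 6.97, 7.03 and 7.68. In both genes null 3 came close to the controls without reaching them. Cldn5, the main claudin of endothelial tight junctions, read 8.54, 8.55 and 8.62 in control and 7.62, 8.09 and 8.31 in null arrays. Cdh5, or VE-cadherin, the adherens junction protein that defines endothelium, read 10.05, 10.13 and 10.11 against 9.54, 9.68 and 9.99. Its difference of -0.36 ± 0.13 (SE) had an adjusted p of 0.261 (limma), and a dimmer probe set gave -0.53. Esam, an endothelial cell-selective adhesion molecule, was the one gene of this group with overlap: null 3, at 7.26, lay among the controls (7.04 to 7.27), while null 1 and null 2 stood at 6.65 and 6.73.

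Surface glycoproteins had a median difference of -0.62 over 7 genes, with 5 free of overlap, against 11.7% of all genes. Clec14a was the one past the threshold, against 0.0715% of all genes. Emcn encodes endomucin, a sialomucin of venous and capillary endothelium. It read 9.54, 9.52 and 9.57 in control and 8.64, 8.77 and 9.12 in null arrays, a difference of -0.70 ± 0.14 (SE) with an adjusted p of 0.132 (limma). Controls agreed closely and every null array was lower, null 3 the least. Plvap forms the diaphragms of fenestrated capillaries. Its levels were 8.43, 8.28 and 8.61 against 7.94, 7.98 and 8.0, so that here null 3 was as low as the other null arrays. Ecscr, a regulator of endothelial chemotaxis, read 8.36, 8.16 and 8.38 against 7.92, 7.27 and 7.77, with null 2 the lowest. Cd93, a lectin-like receptor, read 9.58, 9.60 and 9.57 against 9.11, 8.78 and 9.43. All 5 of its probe sets had a negative difference, from -0.60 to -0.07, and those with -0.30, -0.28 and -0.07 overlapped between the groups. Cd34, a sialomucin shared with blood progenitors, read 8.13, 7.90 and 8.22 against 7.26, 7.14 and 8.0, and Robo4, a guidance receptor of endothelium, read 7.14, 7.21 and 7.67 against 6.69, 6.40 and 7.20. For Cd34 and Robo4 null 3 lay within the control range and the other null arrays below it.

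Of the 5 secreted and matrix genes, 4 had every null array below every control, against 11.7% of all genes, with a group median of -0.37. None passed over all genes (limma), and 3 had an unadjusted p under 0.05, against 8.24% of all genes. Mmrn2 encodes multimerin 2, an endothelial matrix protein that binds Clec14a and Cd93. It read 8.01, 8.23 and 8.11 in control and 7.47, 7.36 and 7.41 in null arrays, a difference of -0.70 ± 0.10 (SE). The adjusted p was 0.0735 (limma), all 4 probe sets were lower, and the null arrays were as tight as the controls. Vwf, the von Willebrand factor stored in endothelial granules, read 7.79, 7.54 and 7.01 against 6.70, 6.88 and 6.75. Its controls were spread more widely than its null arrays. Mmrn1, the platelet and endothelial multimerin also known from lymphatic vessels, read 6.35, 6.52 and 6.70 against 6.33, 5.93 and 6.21. Its dimmer probe set gave -0.093 with overlap. Egfl7, which regulates vessel tube formation, differed by -0.13 ± 0.09 (SE), with all 4 probe sets between -0.25 and -0.04. Its brightest probe set was free of overlap, with a difference far smaller than those of Mmrn2 and Vwf. The Egfl7 probe sets with differences of -0.11 and -0.04 overlapped between the groups. Esm1, a proteoglycan of endothelial tip cells, read 2.12 to 2.62 in control and 2.12 to 2.40 in null arrays, near the floor of the arrays, where a difference carries little weight.

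Transcription factor genes had a median difference of -0.61 over 6 genes, and 4 of them had no overlap, against 11.7% of all genes. None passed over all genes (limma), and 4 had an unadjusted p under 0.05, against 8.24% of all genes. The SoxF genes differed among themselves. Sox17, associated with arterial endothelium, read 7.01, 7.07 and 6.86 in control and 5.11, 5.93 and 6.63 in null arrays, a difference of -1.09 ± 0.34 (SE). Its null arrays were widely spread (adjusted p = 0.218, limma), and its dimmer probe set gave -0.16 with overlap. This mean difference, the largest of the members, rested on null 1 and on 1 probe set: it was -0.70 without null 1, where Clec14a had -0.88, and -0.62 with both probe sets averaged. Sox7 read 6.84, 6.50 and 6.70 against 5.83, 5.35 and 6.26, a difference of -0.87 ± 0.23 (SE). Its other probe set, which read at the low end of the scale, gave +0.09 and was the only one of the 64 member probe sets with a positive difference. Sox18, a regulator of lymphatic differentiation, read 9.61, 9.40 and 9.55 against 9.23, 9.09 and 9.35, a smaller difference of -0.30 ± 0.11 (SE). Among the ETS genes Fli1 read 7.76, 7.55 and 7.82 against 6.80, 6.92 and 7.39, with no overlap in either of its probe sets (-0.68 and -0.80). Erg, an ETS factor of all endothelium, read 7.51, 7.38 and 7.56 against 6.59, 6.65 and 7.56. Ets1, which mesenchyme also expresses, read 9.62, 9.60 and 9.49 against 9.06, 9.02 and 9.61. In these brightest probe sets of Erg and Ets1 null 3 was at the level of the controls and only null 1 and null 2 were lower. The other Erg probe set gave -0.35, with null 2 and null 3 within the control range. Of the other Ets1 probe sets, those with differences of -0.30 and -0.17 overlapped between groups, and that with -0.73 did not.

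**Figure D2:**
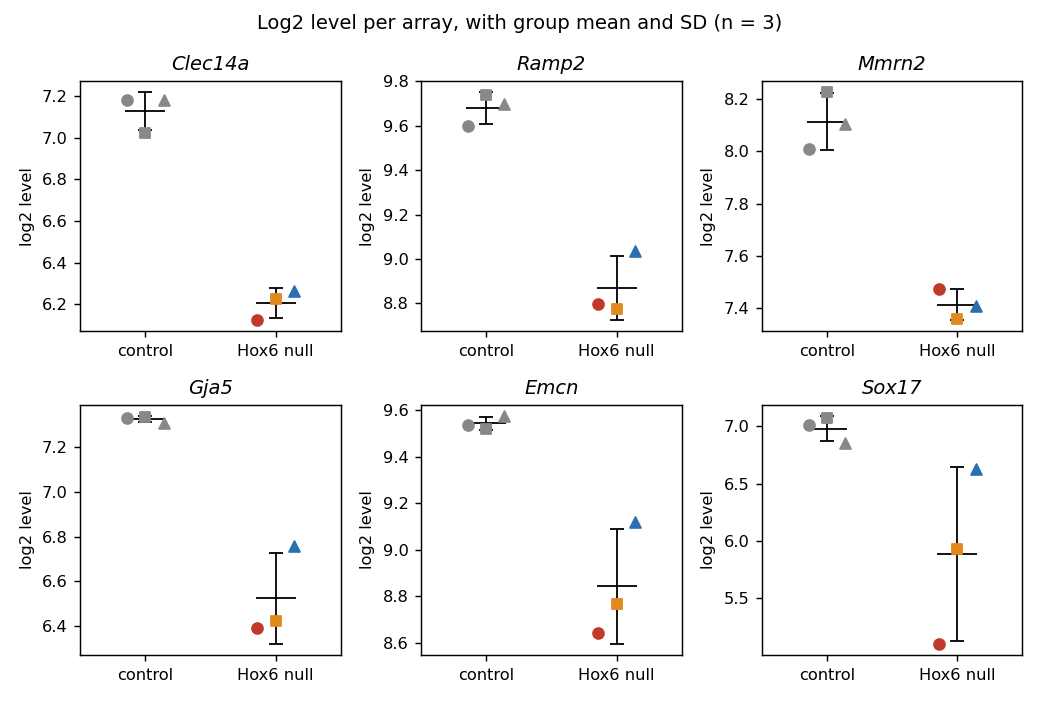
Log2 level of 6 endothelial genes in each array (points; circle, square and triangle are replicates 1, 2 and 3; grey is control, and red, orange and blue are null arrays 1, 2 and 3), with the group mean and SD (n = 3) in black. Vertical scales differ between panels and do not start at 0. All 6 are among the 24 of 36 members without overlap, so that no null array reaches a control here. In Sox17 the null arrays spread from 5.11 to 6.63.

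All 8 receptor and ligand genes were lower on average, with a median of -0.49, and 4 had no overlap, against 11.7% of all genes. None passed over all genes (limma), and 4 had an unadjusted p under 0.05, against 8.24% of all genes. Ramp2 and Calcrl encode the subunits of the adrenomedullin receptor, and both were lower in all null arrays. Ramp2 read 9.60, 9.74 and 9.70 in control and 8.80, 8.77 and 9.03 in null arrays, a difference of -0.81 ± 0.11 (SE) with an adjusted p of 0.0711 (limma). Calcrl read 7.0, 7.35 and 7.37 against 6.04, 6.41 and 6.52, a difference of -0.92 ± 0.16 (SE) with an adjusted p of 0.118 (limma). The null levels of both genes were clear of the controls in these brightest probe sets. Of the other Calcrl probe sets, that with a difference of -0.68 overlapped between the groups and that with -0.21 did not. Aplnr, the apelin receptor, read 10.72, 10.60 and 10.92 against 10.14, 10.15 and 10.48, without overlap in either of its probe sets. Its ligand gene Apln differed by -0.07 ± 0.10 (SE) and overlapped between groups, at 4.71 to 4.90 in control and 4.62 to 4.78 in null arrays. Adgrf5, an adhesion G protein-coupled receptor of vessels, read 7.45, 7.70 and 7.56 against 6.92, 6.55 and 7.41, and its dimmer probe set gave -0.21 with overlap. Eng, the co-receptor endoglin for the Tgf-beta family, read 8.46, 8.46 and 8.69 against 8.47, 8.23 and 8.20, and unlike most members it was highest in null 1 among the null arrays. S1pr1, the receptor for sphingosine-1-phosphate, differed by -0.23 ± 0.21 (SE) with null 3 among the controls. Adgrl4 rested on null 1: it read 5.02, 5.46 and 5.89 in control and 3.74, 5.44 and 5.69 in null arrays, and without null 1 its difference turned to +0.11.

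The 3 intracellular signalling genes had a median difference of -0.33. None passed over all genes (limma), and 1 had an unadjusted p under 0.05, against 8.24% of all genes. Arap3, a GTPase-activating protein, read 9.43, 9.39 and 9.29 in control and 8.75, 9.04 and 9.25 in null arrays, without overlap (difference -0.36 ± 0.14, SE). Its dimmer probe sets gave -0.26 without overlap and -0.012 with overlap. Rasip1, which is needed for vessel lumen formation, read 7.90, 7.79 and 8.08 against 7.48, 7.42 and 7.87. Nos3, the endothelial nitric oxide synthase, read 6.11, 6.17 and 6.34 against 6.22, 5.50 and 6.08, so that only null 2 lay clearly lower. Neither Rasip1 nor Nos3 was free of overlap.

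**Figure D3:**
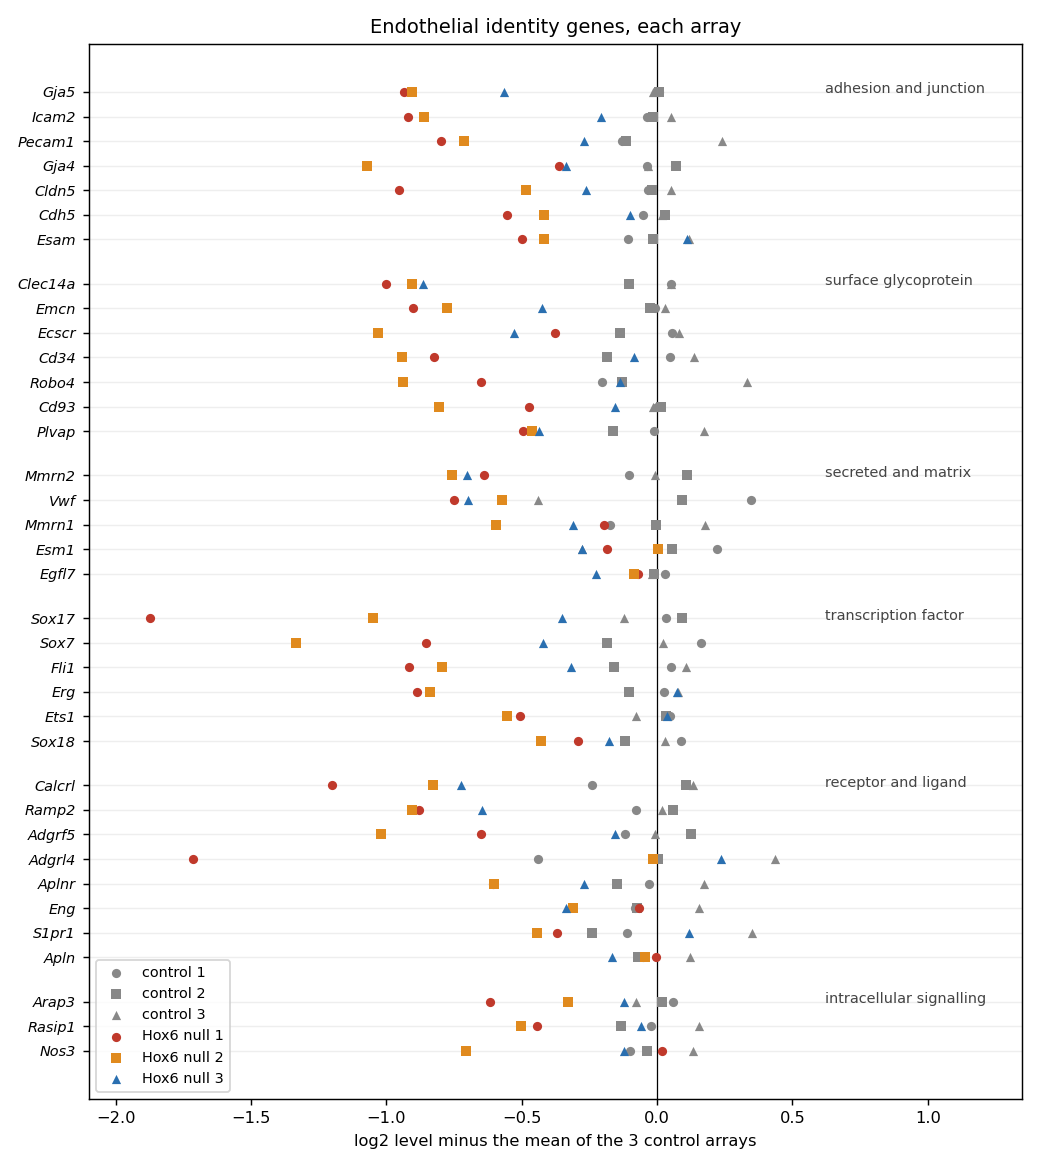
Log2 level of each endothelial gene in each array minus the mean of its 3 control arrays, grouped by role (grey: controls; red circles, orange squares and blue triangles: Hox6 null 1, 2 and 3). Blue points are the highest of the 3 null arrays for 27 of 36 genes, and within the control range for 9.

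The null arrays were not alike. The median of the 36 genes relative to the control mean was -0.63 in null 1, -0.71 in null 2 and -0.26 in null 3. Null 3 was the highest of the null arrays for 27 members, as it was for 31.9% of all genes. It lay below all controls for 27 members, against 31.8% of all genes, within the control range for 9 and above it for none. Null 1 was below all controls for 32 members and null 2 for 33, and the shares of all genes were not computed for these 2 arrays. The SD within the null group exceeded that within the control group for 29 of 36 members, and for 73.5% of all genes. Leaving out null 3 raised the number of members past the threshold from 1 to 19 (limma), while the number over all genes went from 13 to 1536. Leaving out any other single array gave 0, with 17 to 20 members at an unadjusted p under 0.05 (limma). Over all genes 0 to 2 passed in these fits, and the share at an unadjusted p under 0.05 was not computed. The median over members was -0.70 without null 3 and between -0.42 and -0.56 without any other array.

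The 36 members had 64 probe sets, of which 63 had a negative difference, against 42.7% of all 45037 probe sets tested. In 37 of the 64 every null array lay below every control. The share over all probe sets was not computed for this count, and it was 11.7% over genes with 1 probe set each. Several of the 64 probe sets measure the same gene. Of the 17 members with more than 1 probe set, 16 had only negative differences, Sox7 being the exception. When the probe sets of a gene were averaged the median difference was -0.46, and Clec14a was again the one member past the threshold (adjusted p = 0.0423, limma).

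A list of 36 other endothelial genes, which included the Vegf and Tie receptors, was set beside the members. Its median difference was -0.41, and 29 of the 36 were negative, against 44.0% of all genes. Every null array lay below every control for 17, against 11.7% of all genes. The test over all genes (limma) was passed by 1, which was lower in null arrays, against 0.0660% of all genes. That gene was Tek, the angiopoietin receptor, at 8.12, 8.44 and 8.24 in control and 7.09, 7.08 and 7.24 in null arrays (-1.13 ± 0.12, SE, adjusted p = 0.0417, limma). Its call was also lost without any one array other than null 3, with adjusted p-values (limma) of 0.182, 0.252 and 0.226 without control 1, 2 or 3 and of 0.0900 and 0.185 without null 1 or null 2, and it was lost with repeated quantile normalization (0.0557), all probe sets (0.0763), the replicate block (0.115) and the epithelial covariate (0.0946). All 7 Vegf and Tie receptor genes were negative, with a median of -0.41. The caveolin gene Cav1 differed by -1.25 ± 0.17 (SE), the thrombomodulin gene Thbd by -0.77, the Notch target gene Hey2 by -0.94, the phosphatase gene Ptprb by -0.73, the haemato-endothelial factor gene Lmo2 by -0.78, the arterial ephrin gene Efnb2 by -1.28 and the lipoprotein lipase anchor gene Gpihbp1 by -0.57. None of these 7 passed over all genes (adjusted p from 0.0698 to 0.168, limma), though none overlapped between groups. Against the trend, Prox1 differed by +0.77 with overlap. It marks lymphatic endothelium but is also a known factor of pancreatic epithelial progenitors.

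Markers of other cell types also differed between the arrays, and their part in the endothelial differences was not tested. Of 16 epithelial markers 15 were higher in null arrays, with medians of +1.03, +0.92 and +0.05 in null 1, 2 and 3, and mean levels of 8.30 to 8.37 in control and 8.38 to 9.36 in null arrays. None passed over all genes (limma), and 9 were higher at an unadjusted p under 0.05, against 1589 of all 18193 genes. Pdx1, the pancreatic progenitor factor, read 8.62, 8.24 and 8.27 against 9.97, 9.63 and 8.78, above the array medians in every sample. In a fit with the mean level of the 16 epithelial markers as covariate, the median of the endothelial genes was -0.23, 31 of 36 stayed negative and none passed (lowest adjusted p = 0.101, limma), with 8 at an unadjusted p under 0.05. Erg, Esam, Ets1, S1pr1 and Adgrl4 then had positive differences, of +0.11, +0.15, +0.05, +0.15 and +0.47. Null 3 stood above the control mean for each of them. The mean epithelial level was 9.36 and 9.21 in null 1 and null 2 but 8.38, near the controls, in null 3. The fitted difference therefore rested mostly on null 3, where the median of the 36 genes was -0.26. This fit cannot tell the epithelial level from other differences between null 3 and the other null arrays.

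Most stromal and blood cell markers also had negative differences, the erythroid ones less evenly over the null arrays. Of all 18193 genes, 44.0% were negative and 0.0660% passed as lower (limma). At an unadjusted p under 0.05 (limma), 8.24% of all genes were lower and 1589 genes were higher. Of 9 pericyte genes 8 were negative (median -0.36, mean levels 8.70 to 8.80 in control and 8.37 to 8.61 in null arrays); none passed (limma) and 4 had an unadjusted p under 0.05. All 12 mesenchyme genes were negative (median -0.37, 9.70 to 9.84 against 9.14 to 9.20); none passed and 6 had an unadjusted p under 0.05. Of 7 mesothelium genes 6 were negative (median -0.63, 6.72 to 6.86 against 6.01 to 6.23); none passed and 5 had an unadjusted p under 0.05. All 14 macrophage and leukocyte genes were negative (median -0.68, 8.43 to 8.50 against 7.42 to 7.97), Ctss and Adgre1 passed, and 11 had an unadjusted p under 0.05. Of 9 erythroid genes 8 were negative (median -0.38, 7.62 to 7.67 against 6.81 to 7.40), and Hemgn passed, but only 2 were lower at an unadjusted p under 0.05 and 1 (Tfrc) was higher. The erythroid median relative to the control mean was -0.20 in null 1, -0.78 in null 2 and +0.00076 in null 3. Of 7 genes of neural crest and neurons 6 were higher (median +0.29, 6.55 to 6.73 against 6.86 to 6.98); none passed and 3 had an unadjusted p under 0.05.

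The hepatocyte markers, 7 genes of the neighbouring liver, did not follow genotype. Their mean level was 8.0, 9.10 and 7.51 in control arrays and 7.92, 8.25 and 7.68 in null arrays, and Alb read 10.60 in control 2 against 7.98 and 7.25 in the other controls. Without control 2 all 36 endothelial genes remained negative, against 46% of all genes, with a median of -0.56, and none passed (limma). Whether liver tissue had a part in the endothelial differences was not tested.

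**Figure D4:**
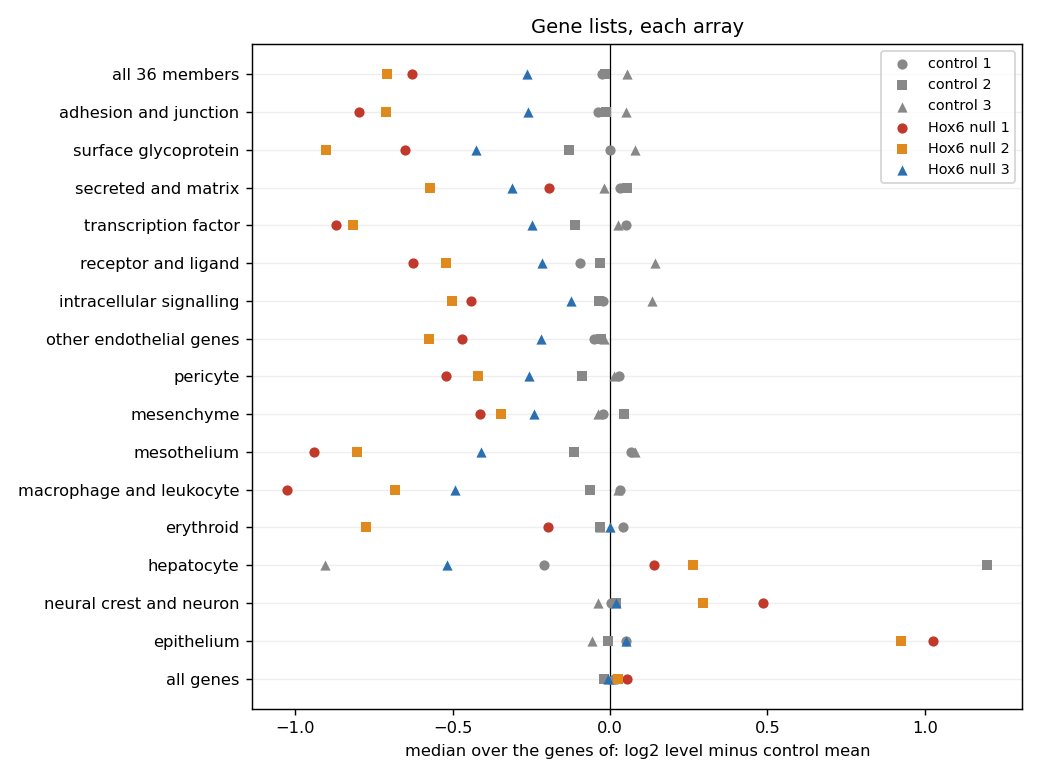
Median over each gene list of the log2 level minus the control mean, for each array (grey: controls; red circles, orange squares and blue triangles: Hox6 null 1, 2 and 3). The endothelial groups lie at or below -0.12 in every null array, together with pericyte, mesenchyme, mesothelium and macrophage lists, while the epithelial list is high in null 1 and null 2 only.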

How the data were processed

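RNA of whole pancreas was amplified from 10 ng with a NuGEN kit and hybridized to Affymetrix arrays, per the labels' protocols. The deposited values are log2 levels for 45101 probe sets. The submitters' processing notes name RMA, affy and limma without versions, and no genome build is given in the sources used here. Names come from the platform annotation, which gives 1 gene symbol for 34945 probe sets, several for 932 and none for 9160, besides 64 array controls. For each of 18193 genes the probe set brightest on average was used, and the groups of 3 were compared with limma 3.58.1 (lmFit, eBayes) in R 4.3.3, genotype as the only term, two-sided, with Benjamini-Hochberg adjustment over all genes and a threshold of 0.05. Errors of differences are moderated standard errors. A permutation of 3 against 3 samples cannot go below an exact p of 0.1, so none was used. The number of arrays limits the precision.

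Members, lists and alternatives were chosen with earlier results of these data known. All members are named. Of the other endothelial genes, those past the threshold and 7 of the 8 next by p are named (the other is not reported here), and of each further list up to 3 by p. Further genes, such as Prox1, were chosen after their values were seen. No gene list was tested as a set. Deviations from the group means correlated at 0.16, -0.04 and 0.10 between arrays with the same replicate number. Between arrays with unlike numbers they correlated at -0.17 to 0.055, below the values of 0.16 and 0.10. These correlations are weak and do not settle whether the numbers mark pairs. The numbers were not taken as pairs in the main comparison, and a replicate block was fitted as an alternative. Promoter sequences are from RefSeq (GRCm38.p6). Protein sequences were not used here.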

Additional observations from a re-analysis of the deposited data

How the results depend on the processing

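Dim genes, RMA's relative scale and 3 arrays per group limit these results. The difference of all 36 members stayed negative with repeated quantile normalization, arrays centred on their median, a trended and robust prior, array weights, the replicate block, probe set averaging, all probe sets tested, and without any one array except null 1 (35 of 36, Adgrl4 at +0.11, in a range of -0.86 to 0.11 without single arrays). With the epithelial covariate 31 were negative, the medians moved to -0.23 for members and -0.20 for other endothelial genes, and Adgrl4, Erg, Esam, Ets1 and S1pr1 turned to 0.47, 0.11, 0.15, 0.048 and 0.15. The covariate fit rested mostly on null 3, and the cause was not tested. Members past the threshold numbered 1 in the main comparison. They were 2 without genes under the median level (Clec14a being left out), 4 with the trended prior or a threshold of 0.1, 5 with array weights, while all genes past the threshold went from 13 (0.0715%) to 19 (0.209%), 74 (0.407%), 88 (0.484%) and 155 (0.852%) in that order. Members past the threshold were 0 with repeated quantile normalization, centring, all probe sets, the covariate or the replicate block (limma). In that order 1, 8, 1, 16 and 0 passed in all, counted as probe sets in the fit over all probe sets. The unadjusted p (limma) was under 0.05 for 25 members in each of these fits except the covariate, which had 8. The share of all genes was not computed for these unadjusted counts, so they have no background beside them. Leaving out single arrays gave 0 to 19 members past the threshold. Beside these shares of all genes, for other endothelial genes the count of 1 became 3 without genes under the median level or with the trended prior, 5 with array weights or a threshold of 0.1, and 0 with repeated quantile normalization, all probe sets, the covariate or the replicate block, and 0 to 15 without single arrays. Over these alternatives the adjusted p of Clec14a (limma) ranged from 0.00994 to 0.252. The replicate block called 0 genes in all, and the replicate numbers are not known to pair samples.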

Other observations

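Some endothelial genes outside the members were not lower in null arrays; these were chosen after their values were seen. Ephb4, the receptor of venous endothelium, read 10.35, 10.15 and 10.36 in control and 10.52, 10.32 and 10.48 in null arrays, a difference of +0.15 ± 0.11 (SE). Its arterial ligand gene Efnb2 read 8.97, 9.44 and 9.15 against 7.46, 7.62 and 8.63. The Notch ligand gene Dll4 and the Notch target gene Hey1 differed by +0.11 ± 0.14 (SE) and +0.07 ± 0.11, while Hey2 differed by -0.94 ± 0.15. Nr2f2, a factor of venous identity that mesenchyme also expresses, differed by -0.27 ± 0.14 (SE). None of these passed over all genes, and whether any of these differences differs from another was not tested.

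Lyve1, a receptor of lymphatic and liver sinusoidal endothelium, read 5.63, 6.97 and 5.56 in control and 6.40, 6.12 and 6.33 in null arrays. Control 2 stood apart there, as it did for Alb (10.60, against 7.98 and 7.25), Apoa1 (9.39, against 7.68 and 7.06) and Apoa2 (9.02, against 7.20 and 6.75). Stab2, another receptor of sinusoidal endothelium, read 6.57, 7.04 and 6.79 in control and 6.94, 6.40 and 6.48 in null arrays, with control 2 the highest. The relation of these levels to one another was not tested.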
